A study of Mus musculus with 12 samples.

Results

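Kidneys in which Hif-1α was inactivated together with Fh1 were compared with kidneys that had lost Fh1 alone. The comparison uses 8 of the 12 arrays of the study, 4 of Fh1-/-Hif-1α-/- kidneys (the double knockout, labelled Hif1a/Fh1 KO) and 4 of Fh1-/- kidneys (labelled Fh1 KO), chosen by their titles, and the remaining 4 control arrays serve as the reference level and help to estimate the spread. The labels give the strain as C57BL/6 and the age as 15 weeks for all mice, and by the methods the lines had been repeatedly backcrossed to C57/BL6J. In both knockout groups the floxed alleles were excised by a single Cre transgene, expressed from the kidney-specific cadherin (Ksp) promoter and therefore restricted to renal tubules, so that vessels, stroma and immune cells of the same kidneys keep both genes. By the paper's immunohistochemistry, some renal tubules of both knockouts also kept Fh1 protein. The controls were littermates that carried conditional alleles without Cre, or a wild-type allele with Cre. RNA was hybridised to Illumina MouseWG-6 BeadChips, and each value below is a log2 signal of 1 probe on 1 array. The labels call the source cysts for every array, also those of the controls. The signal of 16 proximal tubule markers averaged between 13.34 and 14.39 on each of the 12 arrays, and the material is described here as kidney.

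Fumarate hydratase, the product of Fh1, is an enzyme of the tricarboxylic acid cycle, and fumarate that builds up without it inhibits the prolyl hydroxylases that mark Hif-α proteins for destruction. Hif-1α with its partner Arnt binds hypoxia response elements, with a core such as ACGTG (read from the opposite strand as CACGT), and is best known for raising glycolytic enzymes and genes that restrain mitochondrial respiration. Removing Hif-1α on the Fh1-deficient background therefore asks which of the transcripts raised by Fh1 loss depend on Hif-1α, and which go further without it. The paper counted more microcysts in Fh1-/-Hif-1α-/- than in Fh1-/- kidneys at ages on both sides of that of these arrays. No array group lost Hif-1α alone. More advanced cysts and the loss of Hif-1α itself cannot be told apart here, and neither was tested as a cause.

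The targeted genes were read by probes whose place relative to the deleted exons is not given in the sources used here. These probes did not settle the labels, so the genotypes are given as labelled. The paper itself reports excision of the alleles by PCR of kidney DNA. By quantitative PCR on the RNA used for the arrays, it reports reduced Fh1 in both knockouts and reduced Hif-1α in the double knockout. A dim probe of Hif1a was at 8.46, 8.39, 8.29 and 7.43 in Fh1-/- and at 7.39, 7.40, 6.44 and 6.68 in the double knockout, with controls at 7.08 to 7.36. The knockout groups did not overlap, with Fh1-/- replicate 4 close to the double knockouts, and the difference of -1.16 missed the threshold over all probes (limma, adjusted p = 0.0993), with an exact two-sided permutation p of 0.029, the smallest that 4 against 4 arrays allow. It was called within replicates 1 and 2 (-1.03, adjusted p = 0.0242) and with the array set (replicates 1 and 2, or 3 and 4) as a block (0.0251). Within replicates 3 and 4 the difference was -1.30 and was not called (adjusted p = 0.598). Against control this probe was called higher in Fh1-/- kidneys (0.97, adjusted p = 0.0457) and was not called lower in the double knockout (-0.19, adjusted p = 0.647). The brighter probe of Hif1a went the other way, at 0.50 (adjusted p = 0.494), with double-knockout replicate 1 at 10.19 and the other 3 at 11.01 to 11.04, and in the double knockout it was called above control (0.85, adjusted p = 0.0164). Fh1 differed between the knockouts by -0.26 on its brighter probe (adjusted p = 0.396) and by -0.20 on the other. Against control neither Fh1 probe was called in Fh1-/- kidneys (-0.14 and -0.24, adjusted p = 0.446 and 0.228), and both were called lower in the double knockout (-0.40 and -0.45, adjusted p = 0.0141 and 0.0176). Epas1, which encodes Hif-2α and was not targeted in either group, differed by -0.34 (interval -0.66 to -0.02, adjusted p = 0.517).

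Few genes separated the 2 knockout genotypes. Lower without Hif-1α were 10 genes, led by Mgarp, Fam162a, Ankrd37, Pdxp and Pdk1. All 10 were called above control after Fh1 loss alone, where 3.9% of all genes were. The same Fh1-/- arrays enter both comparisons, which favours such a rise, so this is a description. Higher without Hif-1α were 23 genes, among them Adh7, the keratins Krt7, Krt18 and Krt23, the envelope protein gene Ivl and the collecting duct genes Fxyd4, Scnn1g and Avpr2. A gene is represented here by its brightest probe and was called at an adjusted p under 0.05 (limma, Benjamini-Hochberg over 23863 probes), which 0.186% of the 12344 genes passed as higher and 0.081% as lower. By probe the counts were 33 higher (0.138%) and 12 lower (0.0503%), of which 19 (0.0796%) and 7 (0.0293%) also differed at least 2-fold. By gene 14 of the higher (0.113%) and 6 of the lower (0.0486%) reached that fold. At an unadjusted p under 0.05 there were 1283 higher (5.38%) and 820 lower (3.44%) probes. Of the genes named next, Mgarp, Fam162a, Pgk1, Adh7, Casp14, Avpr2 and Nipal1 were called in each of the 12 fits that left out 1 array, and Ankrd37 and Krt18 in 11. Ivl, Ros1, Lypd6b, Krt7, Krt23, Fxyd4, Scnn1g, Rab15 and Klf5 were called in 4 to 8 of these fits. The other called genes kept their call in 1 to 3, among the lower genes Ldha, Pdk1, Higd1a, Prelid2, Zfp979 and Pdxp and among the higher genes Cldn4, Aard, Fam3c, Camk2n2, Macc1, Mal2, Tmem45b, Tspan15 and Adgrg6.

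The promoters of the leading lower genes are shown because these genes moved together and are the place to look for the letters that Hif-1 binds. Each line holds 300 bases, 250 before the annotated start and 50 after it, read 5′ to 3′ along the gene from RefSeq on build GRCm38.p6, with ACGTG on either strand in capitals. The windows are chr3:51396498-51396797 on the minus strand for Mgarp, chr16:36071512-36071811 (minus) for Fam162a, chr8:45999801-46000100 (minus) for Ankrd37, chr15:78913669-78913968 (plus) for Pdxp, chr2:71872974-71873273 (plus) for the first of the entries of Pdk1, and chr9:121857747-121858046 (minus) for Higd1a.
Mgarp: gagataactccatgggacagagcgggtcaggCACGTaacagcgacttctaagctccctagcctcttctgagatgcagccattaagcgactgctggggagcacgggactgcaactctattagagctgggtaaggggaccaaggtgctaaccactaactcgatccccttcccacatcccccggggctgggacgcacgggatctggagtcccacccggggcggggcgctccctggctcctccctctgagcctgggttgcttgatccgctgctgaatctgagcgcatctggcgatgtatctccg
Fam162a: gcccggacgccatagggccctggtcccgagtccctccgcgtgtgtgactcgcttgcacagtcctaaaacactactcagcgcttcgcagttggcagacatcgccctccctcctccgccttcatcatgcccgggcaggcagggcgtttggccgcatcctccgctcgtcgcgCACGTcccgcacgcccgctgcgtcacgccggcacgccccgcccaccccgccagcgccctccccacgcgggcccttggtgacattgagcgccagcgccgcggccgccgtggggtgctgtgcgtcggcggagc
Ankrd37: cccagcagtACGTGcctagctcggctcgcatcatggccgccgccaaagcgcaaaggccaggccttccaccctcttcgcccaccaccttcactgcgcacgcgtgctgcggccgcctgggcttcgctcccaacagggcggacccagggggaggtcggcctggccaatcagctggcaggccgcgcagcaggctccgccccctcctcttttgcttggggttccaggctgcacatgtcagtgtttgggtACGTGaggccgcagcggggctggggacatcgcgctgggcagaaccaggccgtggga
Pdxp: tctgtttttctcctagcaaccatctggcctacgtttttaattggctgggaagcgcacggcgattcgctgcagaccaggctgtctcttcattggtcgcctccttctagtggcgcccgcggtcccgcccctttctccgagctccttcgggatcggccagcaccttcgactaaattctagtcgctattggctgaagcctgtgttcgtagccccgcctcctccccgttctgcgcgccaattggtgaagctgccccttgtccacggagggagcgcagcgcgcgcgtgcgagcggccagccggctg
Pdk1: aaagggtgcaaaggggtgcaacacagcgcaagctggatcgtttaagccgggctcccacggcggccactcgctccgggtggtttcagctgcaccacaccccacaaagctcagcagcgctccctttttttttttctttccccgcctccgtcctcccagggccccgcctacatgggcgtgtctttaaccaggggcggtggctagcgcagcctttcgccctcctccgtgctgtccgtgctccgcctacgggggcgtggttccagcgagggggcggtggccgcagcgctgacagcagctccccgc
Higd1a: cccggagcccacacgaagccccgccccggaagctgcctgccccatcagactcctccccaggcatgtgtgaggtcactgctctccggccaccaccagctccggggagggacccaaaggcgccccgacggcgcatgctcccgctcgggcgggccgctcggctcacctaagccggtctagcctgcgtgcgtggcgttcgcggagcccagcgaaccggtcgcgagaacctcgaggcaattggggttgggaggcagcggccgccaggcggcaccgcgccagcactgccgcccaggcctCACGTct

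The core stands 219 bases before the start in Mgarp, 81 before it in Fam162a, 241 and 6 before it in Ankrd37 and 43 after it in Higd1a, and these windows of Pdxp and Pdk1 hold no ACGTG. The form of the core that begins with G (GCGTG) was not counted here. Of the called lower genes with an entry, 6 of 9 (66.7%) carry at least 1 core in this window on either strand, the others being Ldha with 5 matches, of which 2 pairs overlap, and Pgk1 with 2. Among the called higher genes it is 2 of 18 (11.1%), Fam3c and Krt23, against 2470 of the 9957 measured genes with an entry (24.8%). A match is a description of these letters and shows neither binding nor a cause, and a window without one says nothing about sites further away.

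Mitochondrial genes induced in hypoxia held the largest falls. Mgarp encodes a mitochondrial protein that in human neurons moves mitochondria in hypoxia. Its signal was 12.04, 11.49, 11.75 and 10.97 on the Fh1-/- arrays (replicates 1 to 4) and 8.41, 8.46, 9.21 and 8.64 on the Fh1-/-Hif-1α-/- arrays, with controls at 7.38 to 7.83. The groups did not overlap, and the difference was -2.89 (standard error 0.23, 95% interval -3.38 to -2.39, adjusted p = 0.000354), a 7.39-fold lower signal. Against control, Mgarp was raised by 4.01 in Fh1-/- kidneys and was still called at 1.12 in Fh1-/-Hif-1α-/- kidneys (adjusted p = 0.00586), alone among the 10 lower genes.

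Fam162a, whose human counterpart is a mitochondrial protein raised in hypoxia, read 14.57, 14.19, 14.56 and 14.21 in Fh1-/- and 12.92, 13.02, 13.15 and 13.07 in the double knockout. It is bright in all groups, and the double-knockout arrays lay within or just below the control range of 13.06 to 13.54. The fall was 1.34 on the log2 scale (standard error 0.13, adjusted p = 0.00103), or 2.53-fold. Pdk1, a kinase that shuts off pyruvate dehydrogenase and so keeps pyruvate out of the tricarboxylic acid cycle, read 11.93, 11.65, 11.74 and 10.97 against 10.47, 10.63, 10.65 and 10.11. All Fh1-/- arrays were above all double-knockout arrays, with Fh1-/- replicate 4 the nearest to them, and the fall was 1.11 (standard error 0.18, adjusted p = 0.0402). A second probe of Pdk1, which is dim, differed by -0.38 and was not called (adjusted p = 0.523). Higd1a, a small protein of the inner mitochondrial membrane, fell by 0.92 (adjusted p = 0.0493), from 11.001, 10.59, 10.80 and 10.67 to 9.61, 10.28, 9.81 and 9.69, where double-knockout replicate 2 stands above the other 3.

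Of the list of hypoxia-induced mitochondrial genes, 9 of 11 were measured and 4 were called lower, where 0.081% of all genes were. All 9 differences were below 0, with a median of -0.59, where the median of all genes was 0.01 and 53.1% of genes lay above 0. The list was chosen with earlier results of these data known, so these values are a description. The members that missed the threshold were Bnip3 and Bnip3l, receptors that mark mitochondria for autophagy, at -0.59 (adjusted p = 0.235) and -0.26, the kinase gene Pdk3 at -0.32, the protease gene Lonp1 at -0.19 and the Myc antagonist gene Mxi1 at -0.14. Against control 4 of these 9 were called higher in Fh1-/- kidneys and 1 in the double knockout, where 3.9% and 10.7% of all genes were. The general mitochondrial lists stayed near the median of all genes, with no call among 22 genes of the respiratory chain (median -0.02), 21 of the tricarboxylic acid cycle (-0.10) and 18 of fatty acid oxidation (-0.09).

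**Figure D1:**
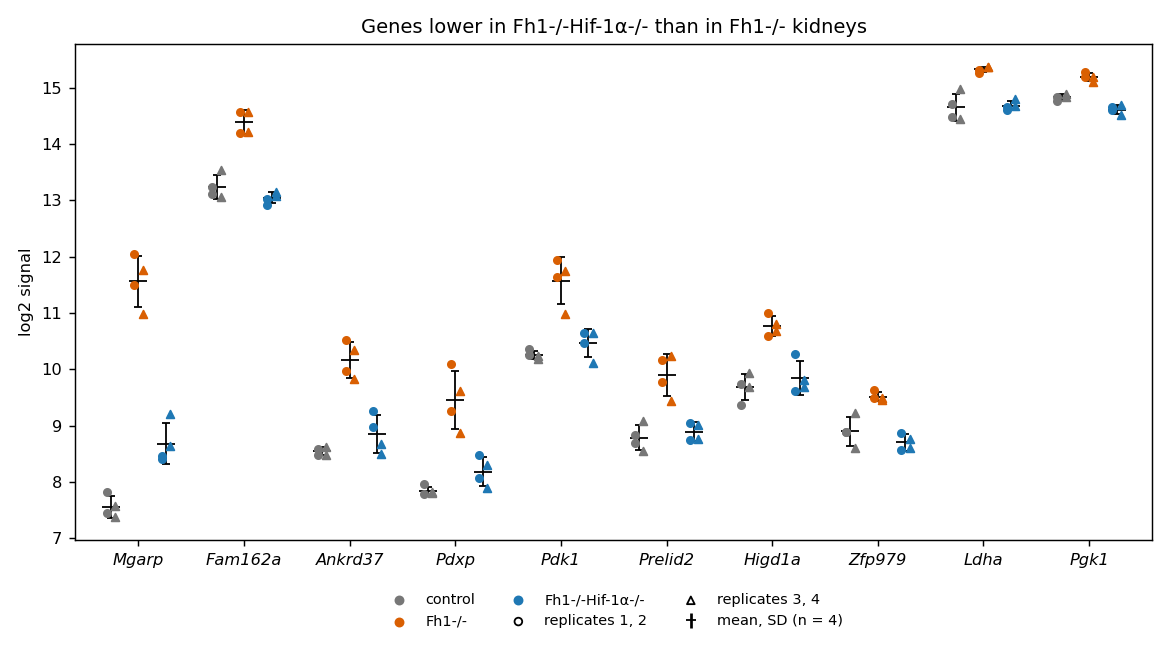
Log2 signal of the 10 genes called lower in Fh1-/-Hif-1α-/- than in Fh1-/- kidneys, 1 point per array with the group mean and SD (n = 4), circles for replicates 1 and 2 and triangles for replicates 3 and 4. In each gene every Fh1-/- array lies above every Fh1-/-Hif-1α-/- array, and in all but Mgarp the double knockouts are close to control.

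Glycolysis held genes called lower between the knockouts and genes that stayed above control in both. Pgk1, which makes the first ATP of the pathway, read 15.27, 15.19, 15.18 and 15.11 in Fh1-/- and 14.60, 14.66, 14.51 and 14.68 in the double knockout, a small but even fall of 0.58 (standard error 0.07, adjusted p = 0.00681). Its other probes, which were far dimmer, differed by -0.51 (adjusted p = 0.252) and 0.01 (adjusted p = 0.993), and neither was called. Ldha, which turns pyruvate into lactate, fell by 0.65 (adjusted p = 0.0402), from between 15.26 and 15.36 to between 14.60 and 14.79. Neither gene overlapped between the genotypes, and both read near the bright end of the arrays, whose highest signal was 16.59. These 2 were the called members of the 17 glycolytic genes measured, where 0.081% of all genes were called lower. Of the 17 genes 14 lay below 0, with a median of -0.22.

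Aldoc, an aldolase, read 12.14, 11.65, 11.53 and 11.14 against 10.27, 10.74, 10.63 and 10.80, a difference of -1.01 that missed the threshold (adjusted p = 0.075). Its groups did not overlap, and the double-knockout mean was level with control (0.00). The phosphofructokinase gene Pfkl differed by -0.94 (adjusted p = 0.0995), with double-knockout replicate 3 at 13.42 and the other 3 at 12.41 to 12.64. Gapdh differed by -0.42 (adjusted p = 0.0738) and was no higher in Fh1-/- than in control kidneys by the test (0.10, adjusted p = 0.531).

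Slc2a1, the glucose transporter of most cells, behaved otherwise. It read 13.59, 13.02, 13.05 and 13.05 in Fh1-/- and 13.23, 13.55, 13.20 and 13.26 in the double knockout, a difference of 0.13 with a 95% interval of -0.20 to 0.47, and both groups were called above control, by 1.38 and 1.51. Pkm, the pyruvate kinase gene, was likewise called above control in both groups, by 1.32 and 1.09, with a difference of -0.23 (interval -0.64 to 0.18). Pfkp was called above control in both groups, by 1.45 in Fh1-/- and by 0.84 in the double knockout. It thus stood lower in the double knockout, without a call between the knockouts. The hexokinase gene Hk1 was above control by 0.86 and 1.04, of which the second was called. Of the 17 glycolytic genes, 8 were called above control without Fh1 and 6 without both genes, where 3.9% and 10.7% of all genes were. The intervals of Slc2a1 and Pkm leave room for smaller differences in either direction.

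Of the genes of hypoxia feedback and signalling, 32 of 36 were measured. Lower calls numbered 1, where 0.081% of all genes were called lower, and the gene was Ankrd37. This ankyrin repeat gene, a Hif-1 target in human cells, read 10.52, 9.98, 10.34 and 9.83 in Fh1-/- and 8.97, 9.26, 8.50 and 8.66 in the double knockout. The groups were well apart, and the fall was 1.32 (standard error 0.18, adjusted p = 0.0131), to 0.31 above control. The other members spread on both sides of 0, 8 of the 32 above and 24 below, with a median of -0.15. Vegfa, the vascular growth factor, differed by -0.49 (adjusted p = 0.179), with Fh1-/- arrays at 13.27 to 13.67 and the double-knockout arrays at 12.72 to 13.24. Kdm3a, a histone demethylase, differed by -0.40 (adjusted p = 0.247). Egln3, a prolyl hydroxylase that Hif itself induces, was called above control in both genotypes, by 1.42 and 1.11, and differed between them by -0.32 (interval -0.79 to 0.15). Car9 and Adm, a carbonic anhydrase and a vasodilator peptide raised by hypoxia in many tissues, differed by 0.00 and -0.07.

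The other lower genes belong to no hypoxia list. Pdxp, which dephosphorylates pyridoxal phosphate, read 10.09, 9.25, 9.61 and 8.87 in Fh1-/- and 8.47, 8.07, 8.29 and 7.89 in the double knockout, and fell by 1.27 (adjusted p = 0.0402). Its double-knockout and control arrays are in the range of dim probes (group means below 8.28, the 25th percentile of mean signal), where differences are uncertain. Prelid2, of a family that carries lipids between mitochondrial membranes, fell by 1.01 (adjusted p = 0.0488). Zfp979, a zinc finger gene, read 9.64, 9.48, 9.49 and 9.45 against 8.56, 8.87, 8.76 and 8.61 and fell by 0.81 (adjusted p = 0.0345). Its second probe differed by -0.49 and was not called (adjusted p = 0.143). Beyond the brightest probes, a probe of Ednrb, the endothelin B receptor, fell by 0.61 (adjusted p = 0.0406), while the brightest probe of that gene was not called. ILMN_2430422, a probe with no gene symbol, fell by 1.14 (adjusted p = 0.0205). In a bulk sample fewer cells of a type and less RNA per cell cannot be told apart, for these and for all later differences.

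Relative to control, the lower genes returned to or towards the control level. All 10 were called above control in Fh1-/- kidneys, where 3.9% of all genes were called higher and 2.26% lower, and 9 of the 10 were not called in Fh1-/-Hif-1α-/- kidneys, where the shares were 10.7% and 8.64%. In those 9 the double-knockout mean lay between -0.22 (Pgk1) and 0.34 (Pdxp) of control. The comparisons share arrays, since the Fh1-/- arrays enter both the rise over control and the fall without Hif-1α, so these values are set side by side and not tested against each other.

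**Figure D2:**
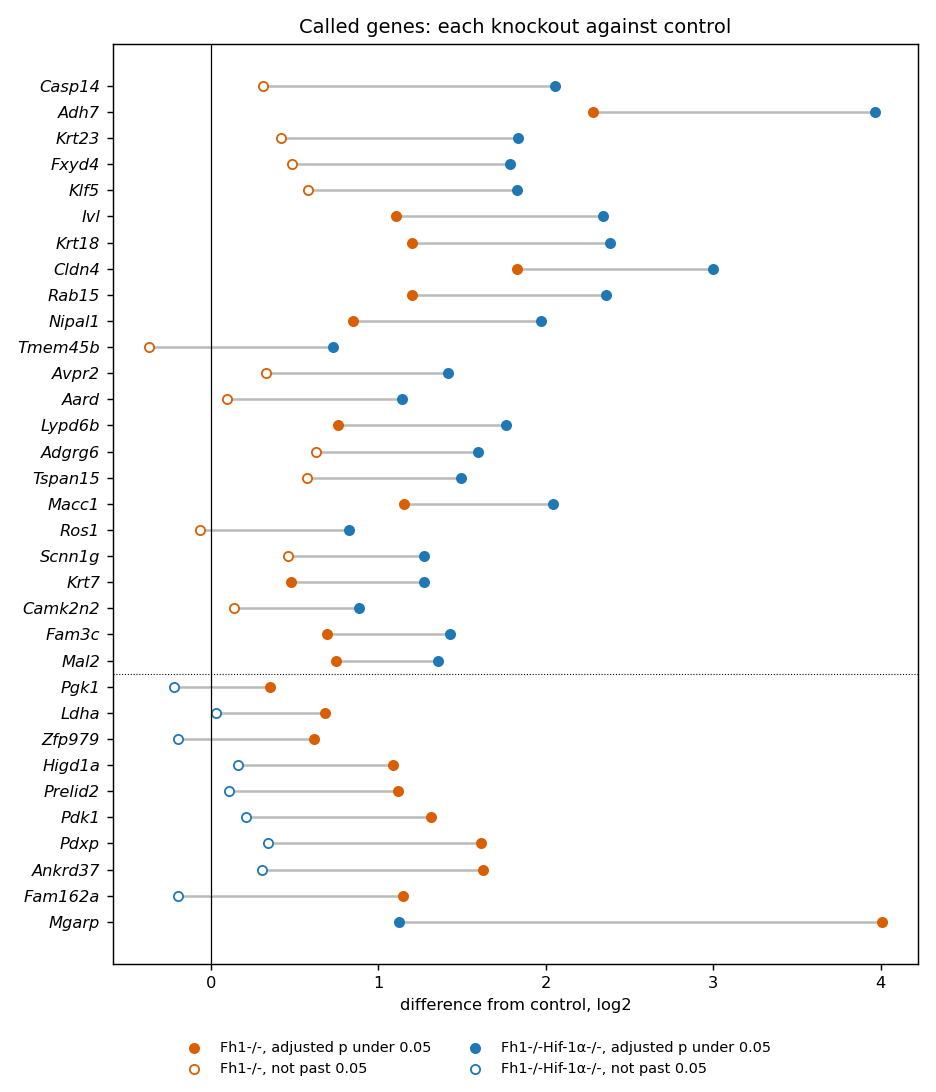
Difference from control on the log2 scale for the 33 called genes, orange for Fh1-/- and blue for Fh1-/-Hif-1α-/- kidneys, filled where the adjusted p is under 0.05 (limma), with the genes called lower without Hif-1α under the dotted line. The lower genes move from a rise in Fh1-/- towards 0, and the higher genes move further from control, from 2.28 to 3.97 in Adh7.

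Among the genes that rose, 11 of 23 had already been raised by Fh1 loss and went further, and 12 had not been called in Fh1-/- kidneys. Over all genes 3.9% were called higher in Fh1-/- kidneys. All 23 were called above control in Fh1-/-Hif-1α-/- kidneys, where 10.7% of all genes were called higher. These genes were chosen for high values on the same double-knockout arrays, so the values are set side by side and not tested against each other. Adh7, a retinol and alcohol dehydrogenase of surface epithelia, belonged to the first kind. It read 10.37, 9.89, 10.18 and 10.23 in Fh1-/- and 11.89, 12.004, 11.45 and 12.07 in the double knockout, against 7.72 to 8.12 in control. Each step was far wider than the spread within a group, and the second was 1.69 (standard error 0.15, adjusted p = 0.000946), or 3.22-fold. Of the other 12 measured genes of retinol and aldehyde metabolism none was called, although 10 of the 13 lay above 0 with a median of 0.57, and Rbp4, the retinol carrier of plasma, was at 1.30 (adjusted p = 0.195).

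Keratins and cornified envelope genes formed the next group. Krt23 read 10.10, 9.83, 9.74 and 9.88 against 11.44, 11.46, 11.37 and 10.96, a rise of 1.42 (adjusted p = 0.0214). It was not called against control in Fh1-/- kidneys (0.42), where control replicate 3 at 10.12 stood as high as the Fh1-/- arrays. Krt18, of simple epithelia, read 11.10, 10.57, 10.62 and 10.62 against 12.13, 11.95, 11.90 and 11.65 and rose by 1.18 (adjusted p = 0.0117), after 1.20 from control to Fh1-/-. Krt7, of ducts, rose by 0.79 (adjusted p = 0.0265), from 11.72 to 12.11 up to 12.50 to 12.90.

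Casp14, a caspase of cornifying skin, was at 7.50, 7.60, 7.32 and 6.81 in Fh1-/- kidneys, level with control (6.70 to 7.30), and at 9.39, 9.24, 8.88 and 8.71 in Fh1-/-Hif-1α-/- kidneys. The lower groups are at the dim end of the arrays, so the rise of 1.75 (adjusted p = 0.0059) is uncertain in size. Ivl, involucrin, the scaffold of the cornified envelope, rose by 1.24 (adjusted p = 0.025), from 8.85, 8.17, 8.93 and 8.33 to 9.80, 9.52, 9.94 and 9.99. A second probe of Ivl differed by 0.71 and was not called (adjusted p = 0.0772). Casp14 and Ivl were the called members of the 12 cornified envelope genes measured, where 0.186% of all genes were called higher. Of the 12 genes 10 lay above 0, with a median of 0.59. Small proline-rich genes moved unevenly. Sprr2f was at 10.51, 8.92, 11.92 and 10.63 in Fh1-/- and at 13.34, 13.18, 11.49 and 12.76 in the double knockout, so that double-knockout replicate 3 fell inside the Fh1-/- range and the difference of 2.20 was not called (adjusted p = 0.136). Sprr2g differed by 1.65 (adjusted p = 0.112).

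Of 17 tubular injury genes 3 were called higher, Krt18, Krt7 and Cldn4, where 0.186% of all genes were called higher. All 17 lay above 0 with a median of 0.57. Cldn4, a claudin that seals the tight junctions of distal tubules, read 12.37, 11.65, 12.21 and 11.44 in Fh1-/- and 13.18, 13.20, 12.94 and 13.03 in the double knockout. The rise was 1.17 (adjusted p = 0.0402), on top of 1.83 from control. The double-knockout arrays were close together, while the Fh1-/- arrays fell into a higher pair (replicates 1 and 3) and a lower pair (replicates 2 and 4). Xist was high on the same higher pair, and a link between them was not tested. Lcn2, the lipocalin shed by injured tubules, was at 14.19, 13.29, 14.42 and 13.20 against 15.03, 15.00, 15.25 and 15.13, a difference of 1.33 that missed the threshold (adjusted p = 0.123). Havcr1, another injury marker, differed by 0.58 (interval -0.72 to 1.88), with control replicate 3 at 11.62 and the other control arrays at 8.31 to 9.20.

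**Figure D3:**
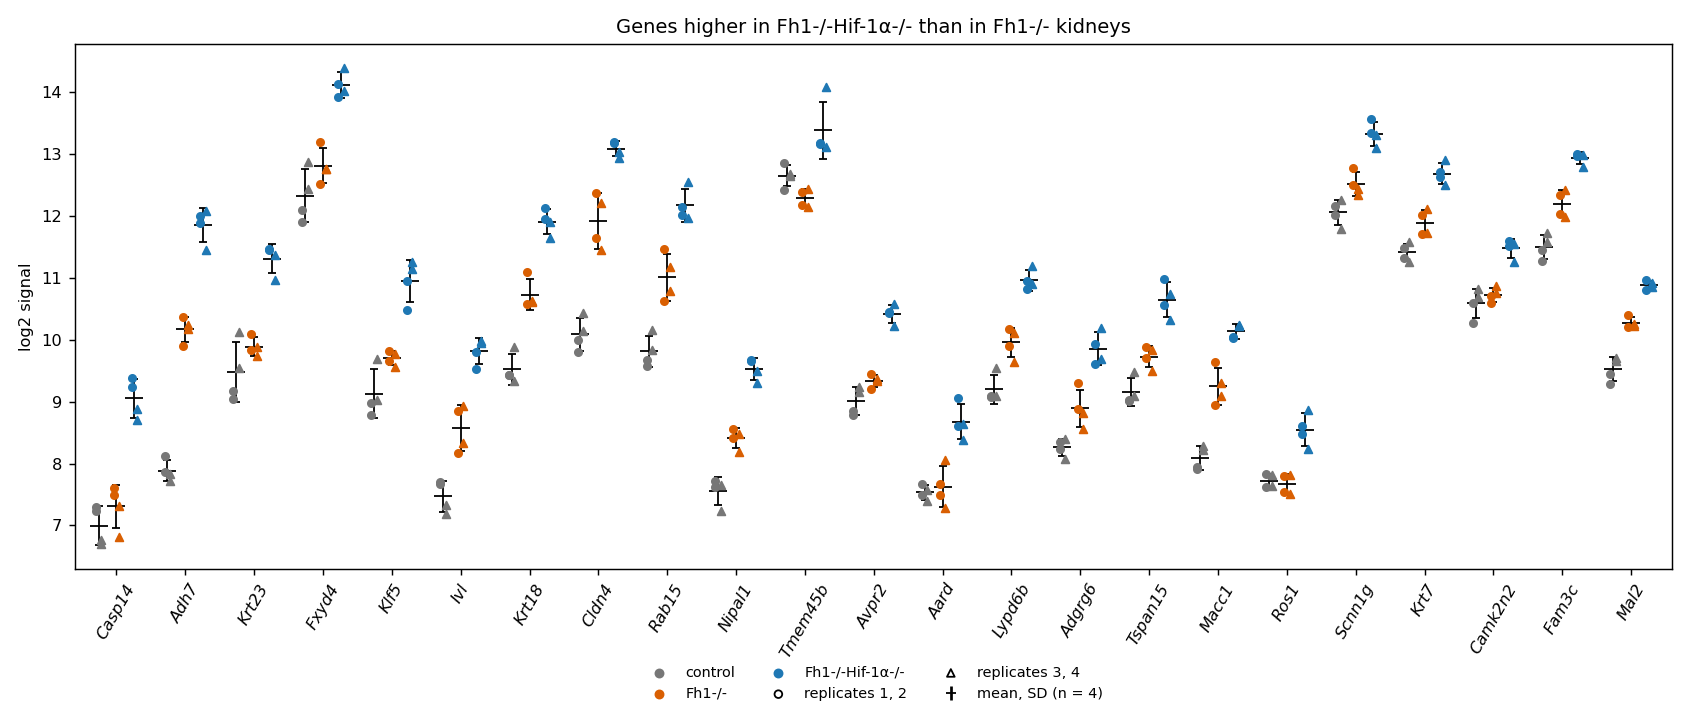
Log2 signal of the 23 genes called higher in Fh1-/-Hif-1α-/- than in Fh1-/- kidneys, 1 point per array with the group mean and SD (n = 4), circles for replicates 1 and 2 and triangles for replicates 3 and 4. In each gene every blue point lies above every orange one. Casp14, Aard and Ros1 are near the floor of the arrays in control and Fh1-/- kidneys, and Tmem45b has a single high array at 14.08.

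Genes of the principal cells of the collecting duct, the cells that take up water under vasopressin and sodium under aldosterone, included 3 called higher of 9 measured. Over all genes 0.186% were called higher. Fxyd4, a regulator of the sodium pump in these cells, read 13.19, 12.51, 12.77 and 12.76 against 14.13, 13.92, 14.39 and 14.01 and rose by 1.31 (adjusted p = 0.025), with a second probe at 1.33. Avpr2, the vasopressin receptor, read 9.45, 9.21, 9.33 and 9.36 against 10.44, 10.45, 10.57 and 10.22 and rose by 1.08 (adjusted p = 0.0059). Its second probe, which is dim, differed by 0.08. Scnn1g, the γ subunit of the epithelial sodium channel, rose by 0.81 (adjusted p = 0.0398), from 12.78, 12.50, 12.44 and 12.35 to 13.34, 13.56, 13.31 and 13.09. None of these 3 was called against control in Fh1-/- kidneys, with Fxyd4 at 0.48, Avpr2 at 0.33 and Scnn1g at 0.46. Of the 9 genes measured, 2 were called higher in Fh1-/- than in control kidneys (3.9% of all genes were). Another 1 was called lower (2.26% of all genes), and the median of the 9 was 0.43.

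All 9 principal cell genes lay above 0, with a median of 0.82 and 6 without overlap of the groups, against 3.94% of all genes without overlap upwards. Aqp2, the vasopressin-regulated water channel, was at 0.90 (adjusted p = 0.0836), Scnn1b at 0.82 (0.0671), Scnn1a at 0.58 and Aqp3 at 0.49. The mean signal of the 9 genes was 11.82 to 12.16 on the Fh1-/- arrays, 12.69 to 12.92 on the Fh1-/-Hif-1α-/- arrays and 11.59 to 11.83 on the control arrays. Because these genes mark a cell type, a larger share of that cell type and more RNA per cell cannot be told apart, and the part of either in the other rises was not tested. Other tubule lists held no call. The thick ascending limb had 7 of 8 genes below 0 (median -0.25) and 4 without overlap downwards, where the background was 2.09%, among them the potassium channel gene Kcnj1 at -0.53 (adjusted p = 0.125). The proximal tubule had 13 of 16 below 0 (median -0.25), and intercalated cells, the neighbours of principal cells in the collecting duct, 6 of 7 (median -0.21). The distal convoluted tubule was even, with 3 of 6 above 0 (median -0.06).

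The remaining higher genes belong to no list. Klf5, a transcription factor of proliferating epithelia and the collecting duct, rose by 1.25 (adjusted p = 0.0343), from 9.82, 9.66, 9.78 and 9.57 to 10.48, 10.94, 11.26 and 11.14. Nipal1, a magnesium transporter, rose by 1.12 (adjusted p = 0.0059), from 8.41, 8.56, 8.48 and 8.18 to 9.66, 9.66, 9.30 and 9.49. Rab15, a GTPase of endosomes, rose by 1.16 and Macc1, which in human tumours raises the receptor Met, by 0.89 (both adjusted p = 0.0402). Lypd6b, Adgrg6, Tspan15, Ros1, Camk2n2, Fam3c and Mal2 rose by 0.61 (Mal2) to 1.00 (Lypd6b). Of these Adgrg6 is an adhesion receptor, Tspan15 a tetraspanin, Ros1 a receptor kinase, Fam3c a secreted factor and Mal2 a protein of apical transport. A second probe of Fam3c was called at 0.72 (adjusted p = 0.0402), and that of Tspan15 was not (0.59, adjusted p = 0.095). Aard rose by 1.05 from a dim level. Tmem45b rose by 1.10 (adjusted p = 0.0441), with double-knockout replicate 3 at 14.08 and the other 3 at 13.11 to 13.18, and its Fh1-/- mean lay 0.37 under control.

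Among called probes the widest rise was at S100a14, a calcium-binding protein of epithelia, on a probe that is not its gene's brightest. The brightest probe of S100a14 was not called. The called probe read 9.01, 8.30, 9.10 and 8.81 in Fh1-/- and 11.32, 10.28, 11.08 and 10.67 in the double knockout, a rise of 2.03 (adjusted p = 0.00651) with no overlap. A second probe of Mgst1, a membrane glutathione transferase, rose by 1.07 (adjusted p = 0.0059), whereas the brightest probe of that gene differed by 0.54 and was not called. Pqlc3 (0.68), Dbndd2 (0.80) and the probes without a symbol ILMN_3158725 (1.15), ILMN_1245816 (1.05), ILMN_3079461 (0.79) and ILMN_2712066 (0.57) make up the rest. The brightest probes of Pqlc3 and Dbndd2 were not called.

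Lists of stress and growth genes held no call between the knockouts by brightest probe. Of the targets of Nrf2, the regulator of antioxidant genes, 36 were measured, 13 were called above control after Fh1 loss and 20 in the double knockout, where the shares over all genes were 3.9% and 10.7%. Between the knockouts none was called by its brightest probe, and 30 of 36 lay above 0 with a median of 0.13, while the second probe of Mgst1 was called, as given above. Hmox1, heme oxygenase, was above control by 2.45 and 2.47, with a difference of 0.02 (interval -0.65 to 0.69). Slc7a11, the cystine importer, read 10.10, 9.75, 9.41 and 9.26 against 10.34, 11.38, 10.51 and 10.68, a difference of 1.10 without overlap (adjusted p = 0.0797). Of the 36 targets 7 had no overlap upwards, against 3.94% of all genes, and the largest difference was that of Cbr3 at 1.12 (adjusted p = 0.167). Osgin1, an oxidative stress gene, was the member without overlap downwards, at -0.71, against 2.09% of all genes. Of 23 genes of the integrated stress response none was called (median 0.24), with the pseudokinase gene Trib3 at 1.03 (adjusted p = 0.128).

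All 14 p53 targets measured lay above 0 with a median of 0.39 and 7 without overlap, against 3.94% of all genes, and none was called. Phlda3, a p53-induced inhibitor of Akt, differed by 0.93 (adjusted p = 0.111) and Gtse1, a gene of the G2 phase, by 0.83 (adjusted p = 0.0772), while Cdkn1a, the cyclin kinase inhibitor, was at 0.41 (interval -0.04 to 0.87). Among 23 genes of DNA replication and mitosis 21 lay above 0 (median 0.25), 2 were called above control after loss of Fh1 (3.9% of all genes were) and 14 after loss of both genes (10.7% of all genes), and Ccnd1, cyclin D1, was the nearest to a call at 0.68 (adjusted p = 0.075). Of the 23 genes 4 had no overlap upwards, against 3.94% of all genes. The direct comparison called no gene of the list, where 0.186% of all genes were called higher. Whether the numbers called against control (2 and 14) differ was not tested.

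**Figure D4:**
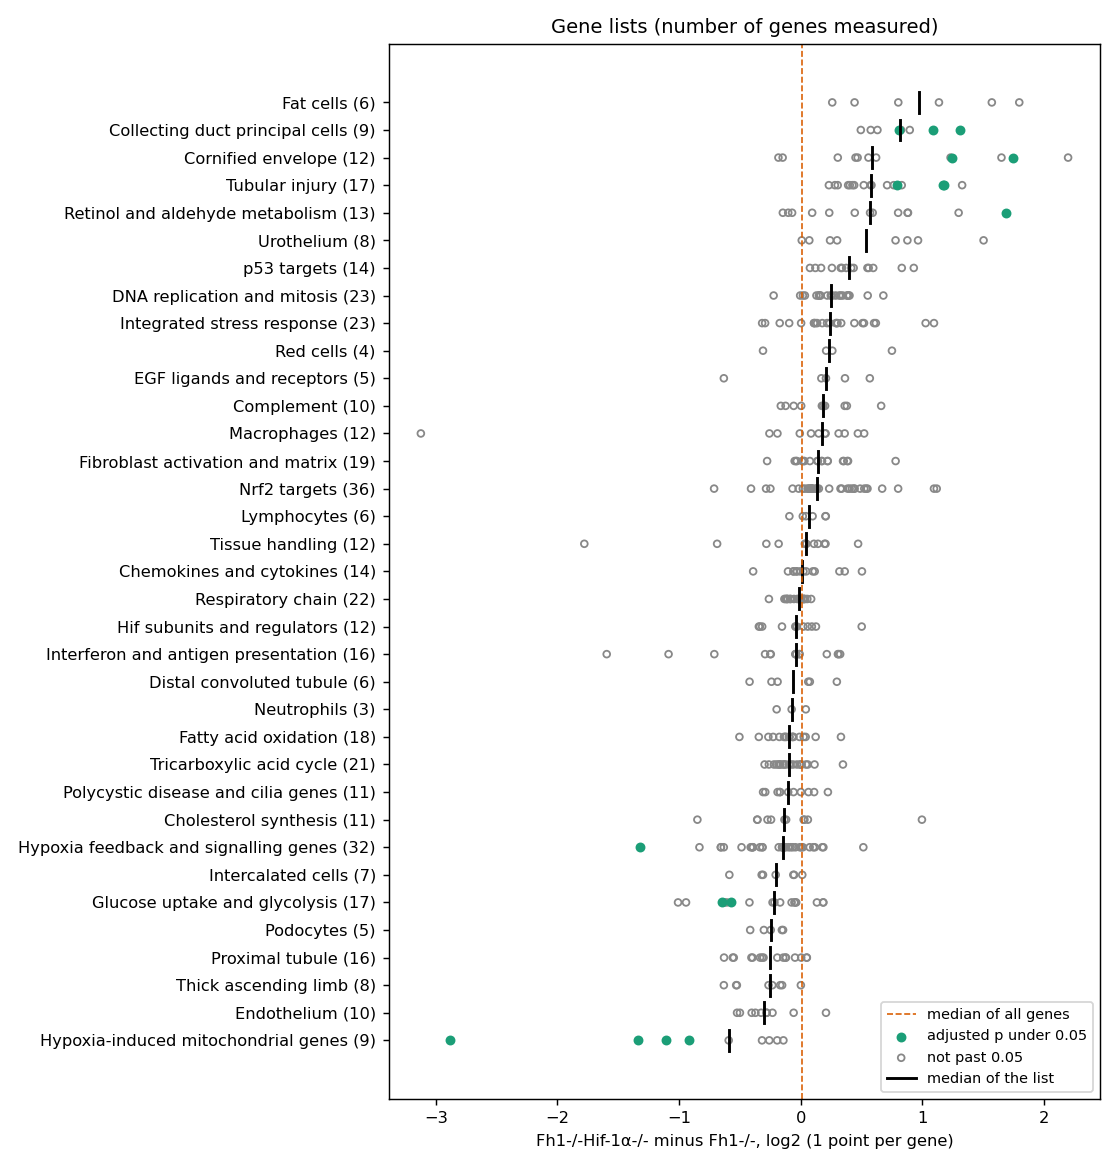
Fh1-/-Hif-1α-/- minus Fh1-/- signal on the log2 scale for the genes of each list, 1 point per gene by its brightest probe, filled where the adjusted p is under 0.05 (limma), with the median of the list as a bar and the median of all genes (0.01) dashed. The hypoxia-induced mitochondrial genes lie lowest, at a median of -0.59, and fat cell, principal cell and cornified envelope genes highest, at 0.97, 0.82 and 0.59. The lists were chosen with earlier results of these data known.

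Other cell types were measured with the same arrays, and their part in the results above was not tested. The 6 fat cell genes measured all lay above 0 (median 0.97), with no call, and their mean signal ran from 7.89 to 9.38 on the Fh1-/- arrays and from 9.12 to 10.93 on the Fh1-/-Hif-1α-/- arrays. Adipoq, the fat cell hormone adiponectin, was at 8.05, 11.61, 8.04 and 10.82 in Fh1-/- and 11.10, 10.74, 12.20 and 11.68 in the double knockout, high on all arrays of the second group and on 2 of the first. Urothelium, the lining of the renal pelvis, bears keratins and claudins too. Its 8 measured markers all lay above 0 (median 0.54, 0.01 within replicates 1 and 2 and 1.35 within replicates 3 and 4) with no call, and their mean was 7.91 to 8.84 in Fh1-/-, 8.54 to 9.73 in Fh1-/-Hif-1α-/- and 8.54 to 9.07 in control kidneys. Of its plaque genes, Upk1a differed by 0.07, Upk3a by 0.30 and Upk1b by 1.50 (adjusted p = 0.284). Endothelial genes lay below 0 in 9 of 10 (median -0.30) with no call, and Emcn, a sialomucin of vessels, was at -0.52.

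The arrays fall into 2 sets that the labels do not name, replicates 1 and 2 and replicates 3 and 4, which the second principal component (18% of the variance) separates. Within each set the genotypes can be compared with 2 arrays a group. All 33 called genes had the same direction, no overlap and an unadjusted limma p under 0.05 within both sets, and all were called when the fit held the set as a block. Being chosen on the same 8 arrays they had to lean that way, so this is a description and no second test. The higher genes had a median difference of 0.98 in replicates 1 and 2 and 1.15 in replicates 3 and 4, and the lower genes -1.10 and -0.98. Mgarp differed by -3.33 and -2.44, Fam162a by -1.40 and -1.27, Ankrd37 by -1.13 and -1.50, Adh7 by 1.82 and 1.56, Krt18 by 1.21 and 1.15 and Fxyd4 by 1.17 and 1.44.

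A probe called within 1 set can be looked up in the other, whose arrays took no part in the choice. Replicates 1 and 2 alone called 48 probes higher (0.201%) and 16 lower (0.067%). In replicates 3 and 4, 38 of the 48 were above 0 (47.1% of all probes were) and 14 had an unadjusted p under 0.05 in that direction, which 2.89% of all probes had, and the median shrank from 1.45 to 0.41. Of the 16 lower probes 15 were below 0 in replicates 3 and 4 (52.9% of all probes were), 6 at an unadjusted p under 0.05, where the background is 2.05%, and the median went from -1.82 to -1.03. Only 7 of the 48 and 3 of the 16 were also called over all 4 replicates. Genes that did not carry over include Cyp24a1, the vitamin D hydroxylase, at 2.73 and -1.51, and Ctsc, a lysosomal protease, at -4.01 and -0.04. Within replicates 3 and 4 no probe was called by limma, with 689 higher and 490 lower at an unadjusted p under 0.05.

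**Figure D5:**
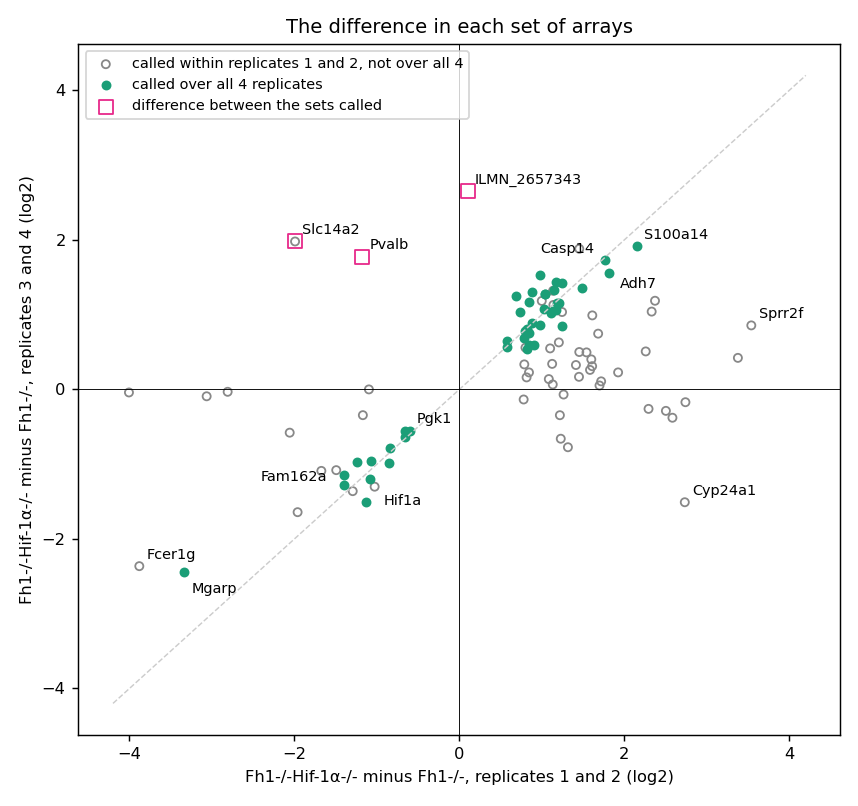
Fh1-/-Hif-1α-/- minus Fh1-/- signal on the log2 scale within replicates 1 and 2 (x axis) and within replicates 3 and 4 (y axis), 1 point per probe that was called over all 4 replicates (filled), within replicates 1 and 2 alone (open) or for a difference between the sets (squares). Filled points lie near the diagonal, open points mostly nearer to 0 on the y axis, and Slc14a2 and Pvalb have opposite signs in the sets.

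A few genes answered differently in the sets. The difference between the sets (a genotype by set interaction in limma) was called for 3 probes, 0.0126% of those tested, while 5.62% had an unadjusted p under 0.05. Slc14a2, the urea transporter of the inner medulla, read 9.81 and 9.50 in Fh1-/- replicates 1 and 2 against 7.61 and 7.72 in the double knockout, but 8.37 and 7.97 against 10.32 and 9.99 in replicates 3 and 4. The difference was -1.99 in the first set and 1.98 in the second (interaction -3.97, adjusted p = 0.00196), and over all 4 replicates it came to -0.01. Pvalb, a calcium buffer of the distal convoluted tubule, turned in the same way, from -1.18 to 1.77 (interaction -2.96, adjusted p = 0.0048), with both knockout groups below the control range of 14.03 to 14.47. The third probe, ILMN_2657343, has no symbol and was high only on double-knockout replicates 3 and 4, at 9.46 and 10.11.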

How the data were processed

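Kidney RNA of 12 mice was measured on Illumina MouseWG-6 BeadChips. The authors read the signals out in GenomeStudio, and GeneSpring GX normalized them (shift to the 75th percentile, baseline at the median of all samples). The deposited table holds normalized log2 signals of 23863 probes, from 6.40 to 16.59 and not centred on a baseline. How these probes were chosen is not given in the sources used here. A table of unnormalized signals was left out, because its 24 value columns match no sample name. Signal over background is therefore unknown, and precision rests on the number of arrays. The methods describe 12 mouse samples with 4 in each group, and the labels number replicates without naming animals. The p-values measure the spread between these arrays.

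All arrays were brought to 1 common 75th percentile (largest shift 0.0397). The 3 groups were fitted together with limma 3.58.1 in R 4.3.3 (lmFit, eBayes with a trend), with Benjamini-Hochberg adjustment over every probe. The 8.28 below which a group mean counts as dim is the 25th percentile of the mean signal. Symbols came from the platform annotation (19906 probes with 1 symbol, 9 with several, 3948 with none), and a gene is its brightest probe. The planned test assumed linear signals, which are log2 here, so no floor or further log was applied. The fit was tested on simulated data. Promoters came from the RefSeq table.

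Named genes were the called genes with the largest differences, up to 20 in each direction, with up to 4 called members of each of 36 lists, or the 2 most different members where a described list had no call, and the targeted genes. The members, lists and tests were chosen with earlier results of these data known. The urothelium list was added after the values were seen, and other genes and probes named in the text were likewise chosen after their values were seen. Replicate numbers are not known to pair the samples, and no such block was used in the reported fit. Alternatives were quantile normalization, no shift, equal medians, no trend, a plain test without moderation, array weights, the 8 knockout arrays alone, the replicate number and the array set as blocks, each set alone, Xist as a covariate, probes above the median signal, other thresholds and leaving out each array.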

Additional observations from a re-analysis of the deposited data

Results flagged for a closer look

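Single arrays stood apart from the other 3 of their group in 16 of the 225 groups tested over 75 named probes (Dixon's test, which chance passes in about 1 of 20 groups). Among the targeted genes they are Fh1-/- replicate 4 of the dim Hif1a probe (7.43, the next array 8.29), double-knockout replicate 1 of the bright one (10.19, next 11.01) and double-knockout replicate 4 of Fh1 (14.1, next 13.8). Among genes called lower it is control replicate 2 of Pdxp (7.95, next 7.81). Among genes and probes called higher they are Fh1-/- replicate 1 of Krt18 (11.1, next 10.62), double-knockout replicate 3 of Tmem45b (14.08, next 13.18), double-knockout replicate 4 of Fam3c (12.79, next 12.96), Fh1-/- replicate 3 of the second Mgst1 probe (12.69, next 12.87), control replicate 3 of Lypd6b (9.54, next 9.09) and control replicate 4 of Tspan15 (9.49, next 9.09). Among genes without a call they are Fh1-/- replicate 1 of Slc2a1 (13.59, next 13.05), double-knockout replicate 2 of Ppp1r1b (11.56, next 11.13), Fh1-/- replicate 2 of Flt1 (12.97, next 13.13), control replicate 2 of Upk1b (9.41, next 8.62), and control replicate 3 of the antigen presentation genes H2-K1 (9.74, next 13.48) and H2-Aa (10.92, next 13.31).

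The effect of added Hif-1α loss differed between the sets of arrays, replicates 1 and 2 against replicates 3 and 4, by a tested interaction in limma for Slc14a2 (-3.97 on the log2 scale), Pvalb (-2.96) and the probe without a symbol ILMN_2657343 (-2.56).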

How the results depend on the processing

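The counts depend on how the spread was estimated more than on scaling. All 45 called probes kept their direction in every alternative run, 27 of them being the ones that remain among probes above the median signal. Against 33 higher and 12 lower probes, quantile normalization, no shift, equal medians and no trend gave 32 to 38 and 11 to 15. A plain test without moderation called 6 and 3, array weights 56 higher, the 8 knockout arrays alone 21 higher, the replicate number as a block 21 higher and 10 lower, the array set as a block 57 and 22, Xist as a covariate 89 and 31, replicates 3 and 4 alone 0 and 0, a fold of at least 2 in addition 19 and 7, and an adjusted p under 0.01 7 and 3. The replicate numbers are not known to pair the samples: the labels give no shared litter or day, and same-numbered arrays correlated with r from -0.02 to 0.46, against -0.04 to 0.57 for other pairs of the same array set. The block kept 24 of the 45 calls. Leaving out each array in turn gave 7 to 49 higher and 3 to 15 lower probes. Higher counts moved by over 1.5 times without Fh1-/- replicate 2 (7), 3 (13) or 4 (12), double-knockout replicate 1 (14), 2 (10) or 3 (12) or control replicate 2 (18), and lower counts without Fh1-/- replicate 1 (6), 2 (4) or 3 (3), double-knockout replicate 1 (5), 2 (7) or 3 (5) or control replicate 1 (5) or 2 (5). Mgarp, Fam162a, Pgk1, Adh7, Casp14, Avpr2 and Nipal1 were called in all 12 such fits, Ankrd37 (not without Fh1-/- replicate 3) and Krt18 (not without Fh1-/- replicate 2) in 11, and the other called genes in 1 (Adgrg6) to 8 (Ivl), as given in the report. The dim Hif1a (ILMN_2511256) probe was called with quantile normalization (adjusted p = 0.0451) and without Fh1-/- replicate 4 (0.0394). Of the named probes 3 changed sign, none of them called: Gsta1 (-0.0092 within replicates 3 and 4, and -0.008 to 0.23 when single arrays were left out), Hmox1 (-0.22 within replicates 3 and 4, and -0.24 to 0.19 when single arrays were left out) and Egf (0.35 within replicates 3 and 4). Why these changed was not tested.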

Other observations

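Some genes were high or low on arrays of more than 1 genotype. H2-K1, a class I antigen presentation gene, was at 12.86 and 13.11 on double-knockout replicates 1 and 2 but at 10.02 and 10.28 on replicates 3 and 4, and at 9.74 on control replicate 3, with 12.46 to 13.64 on the other arrays. Fcer1g, an Fc receptor subunit of myeloid cells, was at 6.85 to 7.28 on all 4 double-knockout arrays, but also at 7.10 on Fh1-/- replicate 4 and 7.21 on control replicate 3, with 10.07 to 11.71 on the other 6. The median difference of the 12 macrophage genes measured was 0.17, so that Fcer1g, at -3.12 (adjusted p = 0.284 from limma), stands apart from the list. Hspa1a, a heat shock gene that rises with tissue handling, was at 13.86 on Fh1-/- replicate 4 and at 9.61 to 10.41 in the double knockouts, a difference of -1.78 (adjusted p = 0.332).

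Xist, expressed from the inactive X chromosome, was at 12.07 or above on Fh1-/- replicates 1 and 3, double-knockout replicates 2 and 3 and control replicate 4, and at 7.76 or below on the others. Arrays with high and low Xist are thus mixed within each group. All 45 called probes were still called with Xist as a covariate.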
